A study of Homo sapiens with 9 samples.

Results

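The enzymes that write, copy and erase DNA methylation, and the Polycomb complex that methylates histone H3, were followed in a lung adenocarcinoma cell line before and after the introduction of reprogramming factors. The genes considered were DNMT1, DNMT3A, DNMT3B, UHRF1, TET1, TET2, TET3, EZH2, SUZ12 and EED, and their probes were all non-control probes whose accession was a RefSeq transcript of one of these genes. This rule found 18 of the 50599 probes of the array, for 9 of the 10 genes and among 21743 gene names. No probe carried an accession that the gene table gives to EED, and EED was therefore not analysed here. Of the 18 probes, 17 were well above background on at least 1 array and 14, for 8 genes, on all 9 arrays.

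There were 3 groups of 3 arrays. Parental A549 is an established lung adenocarcinoma line, and the other groups, OSK-A549-Colony and also OSK-A549-SN, share that background. The OSK groups were transduced by retrovirus with OCT3/4, SOX2 and KLF4 (OSK). OSK-A549-Colony cells were the picked and passaged dome-shaped colonies. OSK-A549-SN cells were the spindle-shaped cells around them, which came off the dish early in trypsin. The parental cells were at passage 98, 98 and 99, while in both OSK groups replicates 1 and 3 were at P106 and replicate 2 at P107, so that passage and transduction cannot be told apart in a comparison with the parental cells. No arrays of cells transduced with an empty or EGFP vector were analysed here.

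DNA methylation is copied to the new strand after replication by DNMT1, which UHRF1 brings to hemimethylated CpG sites. DNMT3A and DNMT3B set new methylation, and the TET dioxygenases oxidise 5-methylcytosine on the way to its removal. EZH2, SUZ12 and EED form the core of Polycomb repressive complex 2 (PRC2), which methylates lysine 27 of histone H3. During reprogramming to pluripotency, both marks are reset over many genes, and several of these enzymes are known targets of the E2F factors that act at the start of S phase.

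Because part of the results below concerns genes of S phase, the promoters were searched for the E2F-type octamers TTTCCCGC, TTTCGCGC, TTTGCCGC and TTTGGCGC on both strands. The windows, from RefSeq and in build GRCh38.p14, ran from 250 bases before to 50 bases after each listed transcription start. All 10 genes had a window, and 4 of them, DNMT1, EZH2, SUZ12 and UHRF1, held an octamer in 5 of the 22 windows of these genes. Among all genes with a window, 1090 of 27305 (3.99%) held one. The stretches around the octamers are shown 5′ to 3′ along the gene, since they mark the members that carry this feature, with the octamer in capitals. UHRF1 had a match in 2 windows, and the longer stretch shows the CpG-rich promoter of the gene with the largest increase.
DNMT1, chr19:10194934-10194985, minus strand: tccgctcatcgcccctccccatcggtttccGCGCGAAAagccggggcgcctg
EZH2, chr7:148884272-148884320, minus strand: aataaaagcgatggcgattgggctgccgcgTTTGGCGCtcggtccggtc
SUZ12, chr17:31936788-31936855, plus strand: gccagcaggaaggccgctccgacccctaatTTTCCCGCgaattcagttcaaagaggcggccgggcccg
UHRF1, chr19:4909457-4909520, plus strand: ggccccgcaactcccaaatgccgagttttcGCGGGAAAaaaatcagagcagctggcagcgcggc
UHRF1, chr19:4909894-4910143, plus strand: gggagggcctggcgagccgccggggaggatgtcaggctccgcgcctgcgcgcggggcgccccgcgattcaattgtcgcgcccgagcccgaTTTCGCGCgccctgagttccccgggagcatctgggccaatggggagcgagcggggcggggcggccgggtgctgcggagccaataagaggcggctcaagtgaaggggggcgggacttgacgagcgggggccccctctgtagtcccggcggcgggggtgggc
The octamer began 2 bases before the start site in DNMT1, 14 and 160 bases before it in the windows of UHRF1, 189 bases before it in SUZ12, and 1 base after it in EZH2. The windows of DNMT3A, DNMT3B, TET1, TET2, TET3 and EED did not hold these letters. The only DNMT3B window held 3 CG dinucleotides, and promoters outside the windows were not searched. A match describes the sequence and is not a measured binding site.

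The values below are log2 intensities relative to the 75th percentile of each array, so that 0 stands for an intensity at that percentile and a difference of 1 for a 2-fold change. The 75th percentile lay between an intensity of 217.5 and 270.6, and between 25808 and 29315 probes were detected per array. Arrays of the same group correlated at r = 0.983 to 0.997, and the median SD between replicates was 0.21 in the parental cells, 0.09 in the OSK-A549-Colony cells and 0.16 in the OSK-A549-SN cells. All 6 epithelial markers (EPCAM, CDH1, KRT7, KRT8, KRT18, KRT19) were detected on every array, with a summed intensity of 366492 to 407543. CDH1, which encodes E-cadherin, fell by 1.00 ± 0.17 in OSK-A549-Colony cells (adjusted p = 0.032) and differed by -0.83 in OSK-A549-SN cells (adjusted p = 0.086), and KRT19 differed by 1.18 (adjusted p = 0.062) and -0.05 (adjusted p = 0.903). Of 7 mesenchymal and fibroblast markers, VIM, CDH2 and FN1 were detected on all arrays and COL3A1, PDGFRB and THY1 on none, and the summed intensity was 38107 to 45936 in the parental cells, 54455 to 54723 in OSK-A549-Colony cells and 52350 to 64936 in OSK-A549-SN cells. CDH2 differed by 0.74 (adjusted p = 0.056) and 0.69 (adjusted p = 0.099), VIM by 0.41 (adjusted p = 0.155) and 0.49 (adjusted p = 0.186), and FN1 by -0.31 (adjusted p = 0.513) and -1.33 (adjusted p = 0.070). Of 5 endothelial markers 2 were detected on all arrays at a summed intensity of 50.9 to 122.7. The leukocyte list had 3 of 4 genes detected on all arrays (PTPRC, CD68 and CD14), at a summed intensity of 903.9 to 1957. CD68, a lysosomal protein gene of macrophages, rose by 1.04 ± 0.16 in OSK-A549-Colony cells (adjusted p = 0.027) and differed by 1.03 in OSK-A549-SN cells (adjusted p = 0.058). The other 3 leukocyte genes, CD14, PTPRC and CD3E, had negative differences in both OSK groups and did not pass, and the median of the list was -0.66 and -0.09. The part of these markers in the results below was not tested.

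Of the transduced factors, KLF4 rose in OSK-A549-Colony cells by 2.77 ± 0.52 (SE, adjusted p = 0.037) and differed in OSK-A549-SN cells by 2.47 ± 0.61 (adjusted p = 0.100). POU5F1, which encodes OCT3/4, differed by -0.42 and -0.32, and SOX2 by -0.18 and 0.71, in the same order, with adjusted p of 0.307 or more. Whether these probes lie inside the transduced sequences is not given in the sources used here.

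Against the parental cells, UHRF1 rose in both OSK groups and a TET1 probe fell in OSK-A549-Colony cells. A probe was called at an adjusted p under 0.05, by limma over all detected probes, together with a fold change over 2. In OSK-A549-Colony cells 2 of 17 member probes were called, beside 1143 of 30864 probes (3.7%) in all. In OSK-A549-SN cells 1 of 17 was called, beside 498 of 32218 (1.55%). By adjusted p alone, 5 member probes passed in OSK-A549-Colony cells, 2 higher and 3 lower, against 9.02% of all probes, and 1 passed in OSK-A549-SN cells, against 1.82%. At an unadjusted p under 0.05 by limma, 6 of 17 member probes passed in OSK-A549-Colony cells, beside 30.1% of all probes. In OSK-A549-SN cells 8 of 17 passed, beside 21.6%. The share of all probes whose groups do not overlap was not counted, so the separations described below are not read as particular to the members. Since both comparisons use the same parental arrays, they are not independent of each other. Over the 3 groups together, limma's F test passed 6 of 17 member probes, beside 3779 of 33083 (11.4%), and these were the 3 probes of DNMT3A, both probes of UHRF1 and TET1 A_33_P3295550.

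**Figure D1:**
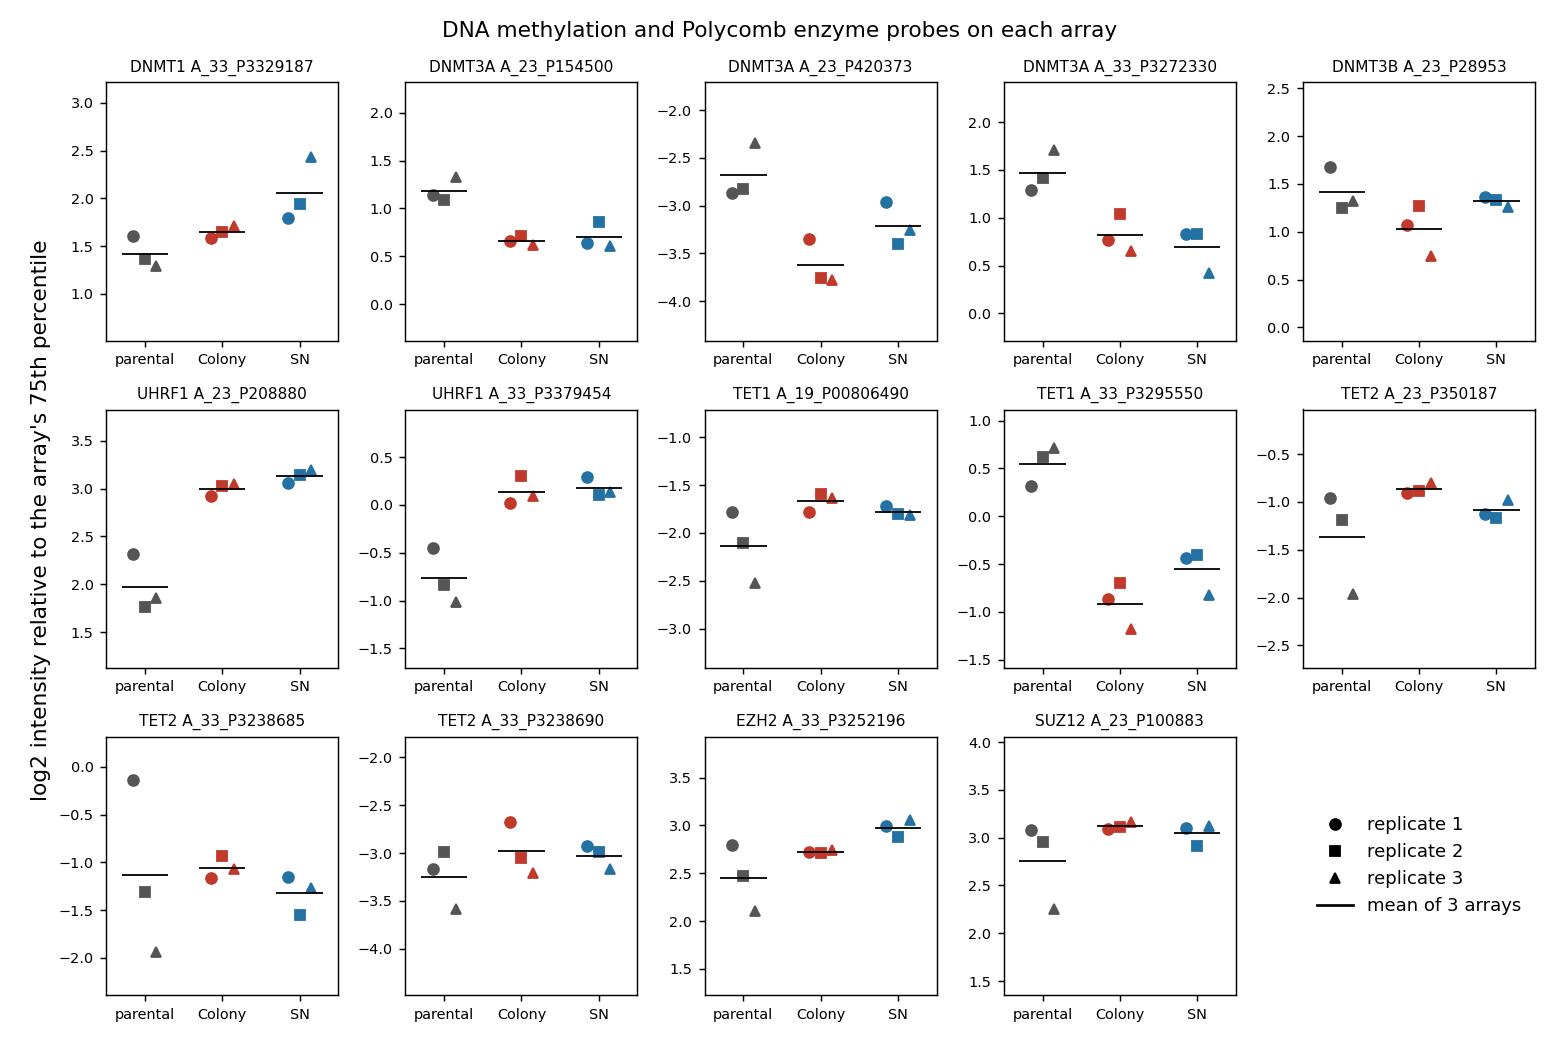
Log2 intensity relative to the array's 75th percentile (vertical axis) of the 14 probes detected on all 9 arrays, by group (horizontal axis); each point is 1 array, its shape gives the replicate, and the line is the mean of 3 arrays. All vertical axes span the same range of 2.7 log2 units. The parental values of UHRF1 lie below all others in both of its panels, those of the 3 DNMT3A probes and of TET1 A_33_P3295550 above all others, and parental replicate 3 is the lowest point for SUZ12, EZH2 and TET2 A_23_P350187.

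UHRF1, the factor that recruits DNMT1 to newly replicated DNA, showed the largest increase. Its probe A_23_P208880 gave 2.31, 1.76 and 1.85 in parental replicates 1 to 3, 2.92, 3.03 and 3.05 in OSK-A549-Colony cells, and 3.06, 3.14 and 3.19 in OSK-A549-SN cells. Every OSK array was above every parental array, and the parental arrays differed more among themselves than the arrays within either OSK group. The difference was 1.03 ± 0.17 in OSK-A549-Colony cells (SE, n = 3 per group, adjusted p = 0.032 by limma), or 2.04-fold, and 1.16 ± 0.18 in OSK-A549-SN cells (adjusted p = 0.046 by limma), or 2.23-fold. With slide as a block the latter was 1.12 (adjusted p = 0.107). The size was near the 2-fold threshold, and the call in OSK-A549-Colony cells was lost, for example, without parental replicate 3, where the difference was 0.96 (adjusted p = 0.046).

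The other UHRF1 probe, A_33_P3379454, is assigned to transcript NM_001290050 in place of NM_013282. It gave -0.45, -0.84 and -1.01 in the parental cells, 0.02, 0.31 and 0.09 in OSK-A549-Colony cells, and 0.29, 0.10 and 0.13 in OSK-A549-SN cells. The OSK arrays again lay above all parental arrays. The difference was 0.91 ± 0.18 in OSK-A549-Colony cells (adjusted p = 0.041) and 0.94 ± 0.18 in OSK-A549-SN cells (adjusted p = 0.068), so that the first passed the adjusted p without the fold threshold. The 2 probes followed each other over the 9 arrays (Pearson's r = 0.97, a description over 3 groups).

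DNMT1, the maintenance methyltransferase, was measured by 1 probe. Its values were 1.61, 1.37 and 1.29 in the parental cells, 1.58, 1.65 and 1.71 in OSK-A549-Colony cells, and 1.80, 1.94 and 2.43 in OSK-A549-SN cells. The OSK-A549-SN arrays were above those of both other groups, whereas OSK-A549-Colony replicate 1 lay below parental replicate 1. The difference from the parental cells was 0.23 ± 0.12 in OSK-A549-Colony cells (adjusted p = 0.270) and 0.63 ± 0.21 in OSK-A549-SN cells (adjusted p = 0.165), and neither passed. OSK-A549-SN replicate 3, the highest value, was also the only array on the other slide, and without it the difference for OSK-A549-SN cells was 0.45.

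The 3 probes of the de novo methyltransferase DNMT3A were lower in both OSK groups. A_23_P154500 gave 1.14, 1.09 and 1.33 in the parental cells, 0.66, 0.71 and 0.62 in OSK-A549-Colony cells, and 0.64, 0.85 and 0.60 in OSK-A549-SN cells. A_33_P3272330, assigned to the same transcript NM_175629, gave 1.29, 1.41 and 1.71, then 0.77, 1.04 and 0.65, then 0.83, 0.83 and 0.43 in the same order of groups. The dimmer A_23_P420373, assigned to NM_175630, gave -2.87, -2.82 and -2.35, then -3.34, -3.76 and -3.77, then -2.96, -3.40 and -3.26. For each probe the 3 parental arrays were above all 6 OSK arrays, a separation whose share over all probes was not counted.

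In OSK-A549-Colony cells A_23_P154500 fell by 0.52 ± 0.11 (adjusted p = 0.045) and A_23_P420373 fell by 0.95 ± 0.20 (adjusted p = 0.047), both under 2-fold. A_33_P3272330 differed by -0.65 ± 0.17 (adjusted p = 0.066). In OSK-A549-SN cells the differences were -0.49 ± 0.14, -0.53 ± 0.21 and -0.77 ± 0.19, for A_23_P154500, A_23_P420373 and A_33_P3272330, with adjusted p of 0.135, 0.215 and 0.097. Under normexp background correction the dim probe A_23_P420373 differed by -0.27 in OSK-A549-Colony cells (adjusted p = 0.109), and the size of its difference therefore depended on the background.

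DNMT3B, the other de novo methyltransferase, did not pass a test in any comparison. Its probe gave 1.68, 1.24 and 1.32 in the parental cells, 1.07, 1.27 and 0.74 in OSK-A549-Colony cells, and 1.36, 1.34 and 1.26 in OSK-A549-SN cells, and the groups overlapped. The difference was -0.39 in OSK-A549-Colony cells (95% interval -0.86 to 0.08) and -0.10 in OSK-A549-SN cells (-0.49 to 0.29), intervals that leave room for a decrease of the size seen in DNMT3A in the former. Without parental replicate 1 these differences were -0.26 and 0.04, and without OSK-A549-Colony replicate 3 the former was -0.25.

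The probes of TET1, a dioxygenase active in pluripotent cells, did not move together. A_33_P3295550 gave 0.31, 0.62 and 0.72 in the parental cells, -0.86, -0.70 and -1.18 in OSK-A549-Colony cells, and -0.44, -0.41 and -0.82 in OSK-A549-SN cells. All parental arrays lay above all OSK arrays. This probe fell by 1.47 ± 0.18 in OSK-A549-Colony cells (adjusted p = 0.022 by limma), or 2.76-fold, and differed by -1.11 ± 0.19 in OSK-A549-SN cells (adjusted p = 0.053 by limma).

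A_19_P00806490, assigned to the same TET1 transcript NM_030625, gave -1.78, -2.10 and -2.53 in the parental cells, -1.78, -1.59 and -1.64 in OSK-A549-Colony cells, and -1.72, -1.80 and -1.81 in OSK-A549-SN cells. Here the OSK arrays lay near parental replicate 1 and above the other parental arrays, with differences of 0.47 ± 0.21 (adjusted p = 0.196) and 0.36 ± 0.21 (adjusted p = 0.380). Without parental replicate 3, its lowest array, they were 0.27 and 0.16. Over the 9 arrays the 2 probes ran against each other (Pearson's r = -0.79). The third probe, A_23_P322756, was well above background on 5 of 9 arrays and differed by 0.50 ± 0.80 and 0.09 ± 0.79. Parental replicate 1 decided its value: without it the probe was called higher in OSK-A549-Colony cells, by 1.43 (adjusted p = 0.036), and without parental replicate 3 it differed by -0.10. With the mean of all its detected probes in place of the brightest, TET1 differed by -0.17 in OSK-A549-Colony cells (adjusted p = 0.734), so the decrease was that of A_33_P3295550 and was not shared by the gene's probes. Probe sequences were not used here, and which part of the gene each probe reads was not tested.

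No probe of TET2 or TET3 had an adjusted p under 0.05 in any comparison. Of the TET2 probes, A_23_P350187 gave -0.96, -1.18 and -1.97 in the parental cells, -0.91, -0.88 and -0.80 in OSK-A549-Colony cells, and -1.12, -1.17 and -0.98 in OSK-A549-SN cells. Parental replicate 3 stood apart from the other arrays at the low end. The 4 TET2 probes differed by between -0.12 and 0.51 in OSK-A549-Colony cells and by between -0.20 and 0.28 in OSK-A549-SN cells, with adjusted p of 0.271 or more. Without parental replicate 3, the differences of A_23_P350187 went from 0.51 to 0.21 and from 0.28 to -0.02. Those of A_33_P3238685, 0.07 and -0.20, were -0.33 and -0.60 without parental replicate 3 and 0.57 and 0.30 without parental replicate 1. With any 1 array left out, A_33_P3238690 differed by between 0.10 and 0.40 in OSK-A549-Colony cells and by between 0.05 and 0.35 in OSK-A549-SN cells, and A_33_P3266719 by between -0.31 and 0.10 and by between 0.06 and 0.47. Of the TET3 probes, A_33_P3235177 was well above background on no array, and A_33_P3331335 on parental replicate 3 and OSK-A549-SN replicate 2, at intensities of 21.8 and 13.01. No level of TET3 can be given in OSK-A549-Colony cells, in which neither probe was well above background.

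**Figure D2:**
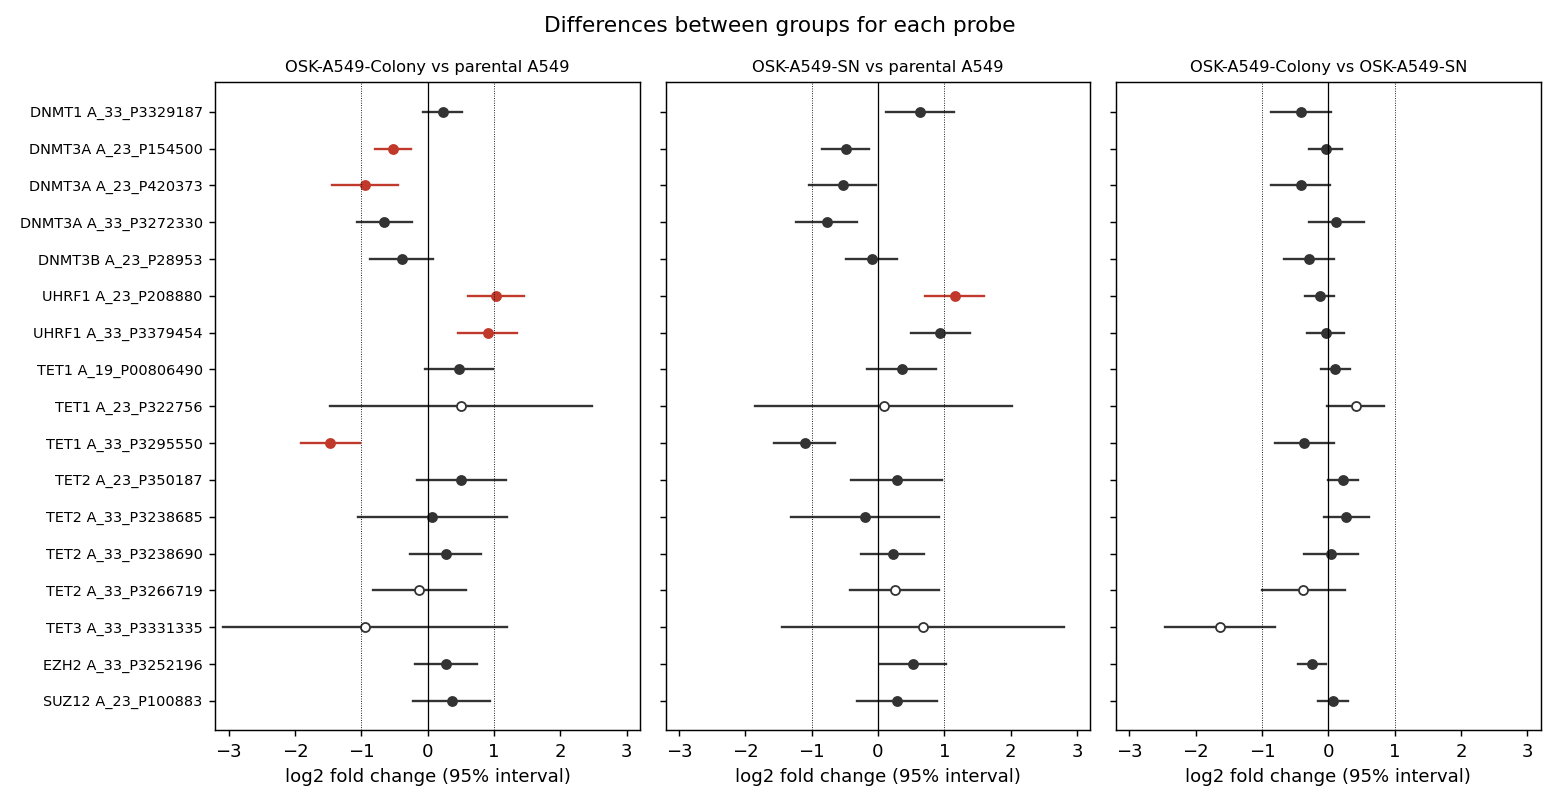
Log2 fold change (horizontal axis, first-named group minus second) with its 95% interval for the 17 tested probes in the 3 comparisons; red marks an adjusted p under 0.05, an open point a probe not detected on all 6 arrays, and the dotted lines a 2-fold change. In OSK-A549-Colony against parental cells 5 probes are red, in OSK-A549-SN against parental cells only UHRF1 A_23_P208880, and between the OSK groups none.

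No measured gene of PRC2 had an adjusted p under 0.05 against the parental cells. EZH2, the methyltransferase of the complex, gave 2.79, 2.47 and 2.10 in the parental cells, 2.72, 2.71 and 2.75 in OSK-A549-Colony cells, and 3.00, 2.88 and 3.05 in OSK-A549-SN cells. The OSK-A549-SN arrays were the highest, and the OSK-A549-Colony arrays lay within the parental range. The differences were 0.27 ± 0.19 (95% interval -0.20 to 0.74, adjusted p = 0.380) in OSK-A549-Colony cells and 0.52 ± 0.20 (0.02 to 1.02, adjusted p = 0.215) in OSK-A549-SN cells. Without 1 array at a time the former was 0.10 (without parental replicate 3) to 0.44 (without parental replicate 1) and the latter 0.35 to 0.69, and none of these passed.

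SUZ12, the subunit that holds the complex together, was measured by a probe printed 10 times on each array, and the SD between its spots on 1 array was 0.05 to 0.09. It gave 3.08, 2.95 and 2.25 in the parental cells, 3.09, 3.11 and 3.16 in OSK-A549-Colony cells, and 3.10, 2.92 and 3.12 in OSK-A549-SN cells. Parental replicate 3 was low on all of its 10 spots, with intensities of 986.2 to 1114, while every spot of the other 8 arrays was between 1539 and 2665. The difference from the parental cells was 0.36 ± 0.23 in OSK-A549-Colony cells (adjusted p = 0.347) and 0.29 ± 0.24 in OSK-A549-SN cells (adjusted p = 0.525). Without parental replicate 3 the smallest of the leave-one-out differences was reached, 0.11 and 0.03.

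The OSK groups were then compared with each other, a comparison in which the passages are balanced. By limma no member probe was called, and none of 31746 probes in all (0.0%), the smallest adjusted p being 0.093. At an unadjusted p under 0.05, 2 of 17 member probes and 19.5% of all probes passed. The 2 probes were EZH2, lower in OSK-A549-Colony cells by -0.25 ± 0.08 (adjusted p = 0.210), and TET3 A_33_P3331335, which was not well above background in OSK-A549-Colony cells. The EZH2 difference was -0.29 within P106 and -0.16 within P107. DNMT1 differed by -0.41 ± 0.18 (adjusted p = 0.288), with -0.47 and -0.29 within the passages. UHRF1 A_23_P208880 differed by -0.13 (95% interval -0.35 to 0.08) and TET1 A_33_P3295550 by -0.36 (-0.80 to 0.08). Between arrays of the same replicate number, 1 to 3, UHRF1 A_23_P208880 differed by -0.14, -0.11 and -0.14 and TET1 A_33_P3295550 by -0.42, -0.29 and -0.36. Both were lower in OSK-A549-Colony cells each time, and with the number as a block limma's adjusted p was 0.475 and 0.249. Other probes of these genes did not share this. UHRF1 A_33_P3379454 gave -0.27, 0.20 and -0.05, TET1 A_19_P00806490 gave -0.06, 0.21 and 0.17, and the dim TET1 A_23_P322756 gave 0.89, 0.26 and 0.10. In bulk samples a change in the share of a cell type and a change in RNA per cell cannot be told apart.

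The cofactors and opponents of these enzymes were described with 1 probe per gene, the brightest. Over all named genes, 342 were called higher and 298 lower of 16359 in OSK-A549-Colony cells, and 127 and 147 of 16732 in OSK-A549-SN cells. Of 9 cofactors of DNA methylation 6 were tested, and CXXC4, which binds CpG-rich DNA and restrains TET2, fell by 1.55 ± 0.16 in OSK-A549-Colony cells (adjusted p = 0.018) and fell by 1.48 ± 0.20 in OSK-A549-SN cells (adjusted p = 0.039). CXXC4 was the only cofactor to pass, while HELLS, a remodeller needed for DNA methylation, differed by 0.37 and 0.44 and did not pass. None of the 8 methyl-CpG readers passed, and their medians were 0.14 and 0.19, beside 0.03 and 0.09 over all named genes. ZBTB33, which encodes the reader Kaiso, had the largest difference among them, 0.66 (adjusted p = 0.230) and 0.46 (adjusted p = 0.453).

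Of 9 genes for the repair of oxidised bases, NEIL1, a DNA glycosylase, fell by 1.51 ± 0.24 (adjusted p = 0.029) and GADD45B, a stress-induced factor linked to active demethylation, fell by 1.21 ± 0.16 (adjusted p = 0.022) in OSK-A549-Colony cells. In OSK-A549-SN cells these genes differed by -1.22 (adjusted p = 0.075) and -0.85 (adjusted p = 0.057). TDG, the glycosylase that removes the products of TET oxidation, differed by 0.51 (adjusted p = 0.117) and 0.28 (adjusted p = 0.430). Among 7 genes for the supply of the methyl donor and of oxoglutarate, D2HGDH, which clears 2-hydroxyglutarate, fell by 0.61 ± 0.12 in OSK-A549-Colony cells (adjusted p = 0.042), under 2-fold, and differed by -0.38 in OSK-A549-SN cells (adjusted p = 0.262). The largest difference of these genes in OSK-A549-Colony cells was that of IDH2, the mitochondrial enzyme that makes oxoglutarate, at -0.75 (adjusted p = 0.053), and it was -0.41 in OSK-A549-SN cells (adjusted p = 0.289).

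None of the 9 tested further PRC2 subunits passed. EZH1, the paralogue of EZH2, differed by -0.36 ± 0.09 in OSK-A549-Colony cells (adjusted p = 0.068) and by -0.43 ± 0.14 in OSK-A549-SN cells (adjusted p = 0.159). In OSK-A549-Colony cells 14 of 20 PRC1 genes had a positive and 6 a negative difference, with a median of 0.17. Over the 16359 named genes tested in this comparison 52.8% were higher, with a median of 0.03, and 868 rose and 687 fell by adjusted p. PHC2 (0.63, adjusted p = 0.042) and PCGF6 (0.62, adjusted p = 0.036) rose and YAF2 fell by 0.66 (adjusted p = 0.033), all under 2-fold, and no PRC1 gene passed in OSK-A549-SN cells. CBX7, a chromodomain subunit of PRC1, had the largest difference of the list in OSK-A549-Colony cells, -0.74 (adjusted p = 0.070), while BMI1, a subunit known for stem cell self-renewal, differed by 0.73 (adjusted p = 0.095) and 0.66 (adjusted p = 0.189). None of the 9 tested antagonists of Polycomb, such as the demethylase KDM6A and the deubiquitinase partner ASXL1, passed in either group.

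**Figure D3:**
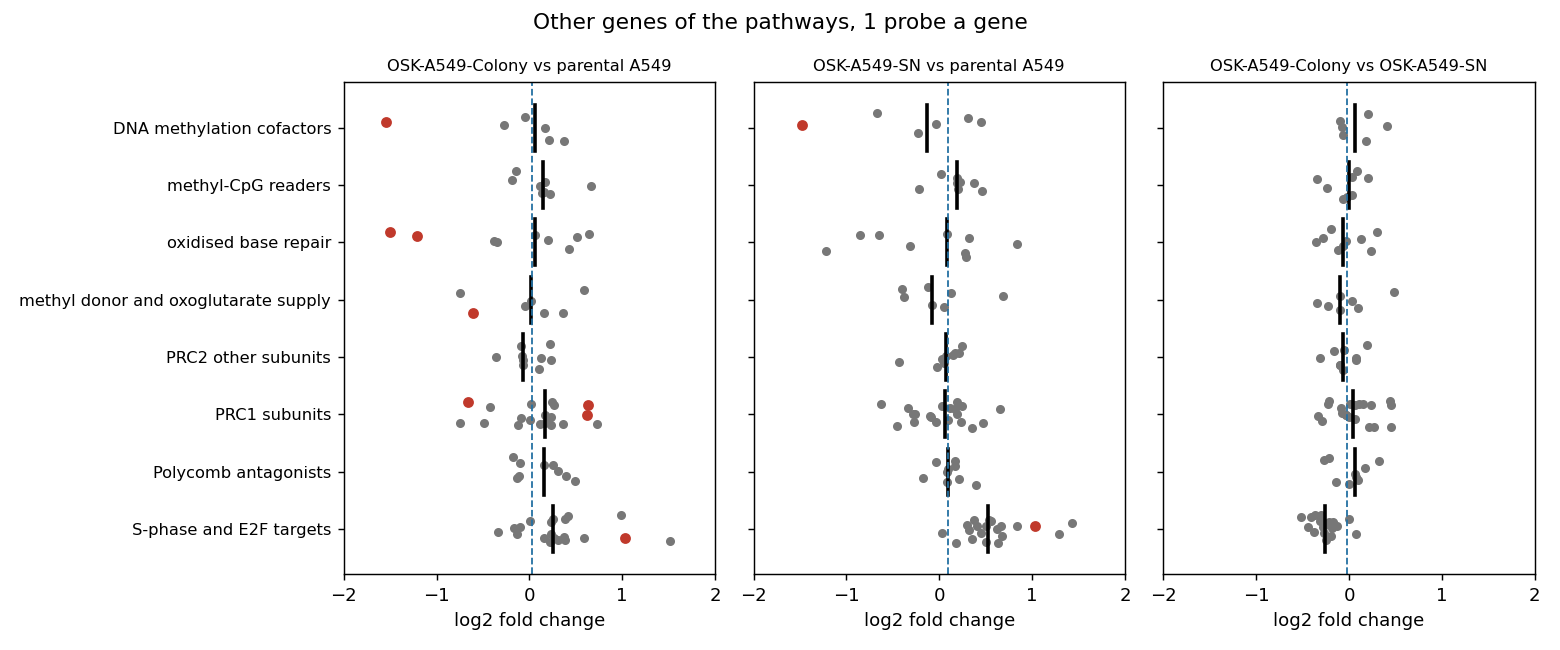
Log2 fold change (horizontal axis) of the other genes of the pathways by list (vertical axis) in the 3 comparisons; each point is 1 gene, red marks an adjusted p under 0.05, the black bar is the median of the list and the dashed line the median of all named genes. The S-phase list lies to the right in both comparisons with the parental cells, with medians of 0.26 and 0.52, and, with OSK-A549-SN subtracted from OSK-A549-Colony, to the left, with a median of -0.26.

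UHRF1, DNMT1 and EZH2 are transcribed most in cycling cells, and their values are therefore given beside those of 20 S-phase and E2F target genes. In OSK-A549-SN cells all 20 were higher than in the parental cells, with a median of 0.52 beside 0.09 over all named genes, and in OSK-A549-Colony cells 16 were higher, with a median of 0.26 beside 0.03. Between the OSK groups, 18 of 20 were lower in OSK-A549-Colony cells, with a median of -0.26 beside -0.03. Only CDC6, which loads the replicative helicase, passed, rising by 1.03 ± 0.20 in OSK-A549-Colony cells (adjusted p = 0.039) and by 1.03 ± 0.17 in OSK-A549-SN cells (adjusted p = 0.049). CCNE2 differed by 1.51 (adjusted p = 0.065) and 1.43 (adjusted p = 0.117), and RRM2, a subunit of ribonucleotide reductase, by 0.99 (adjusted p = 0.063) and 1.29 (adjusted p = 0.068), whereas PCNA differed by -0.34 (adjusted p = 0.121) and 0.03 (adjusted p = 0.903).

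The median of the 20 genes on each array, relative to the mean of each gene over the 9 arrays, was -0.03, -0.39 and -0.37 in the parental cells, -0.07, 0.06 and 0.05 in OSK-A549-Colony cells, and 0.26, 0.32 and 0.20 in OSK-A549-SN cells. Of the 17 S-phase genes with a promoter window, 11 held the E2F-type octamer shown above, but the list was chosen as targets of these factors. The part of the S-phase genes in the increase of UHRF1 was not tested.

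**Figure D4:**
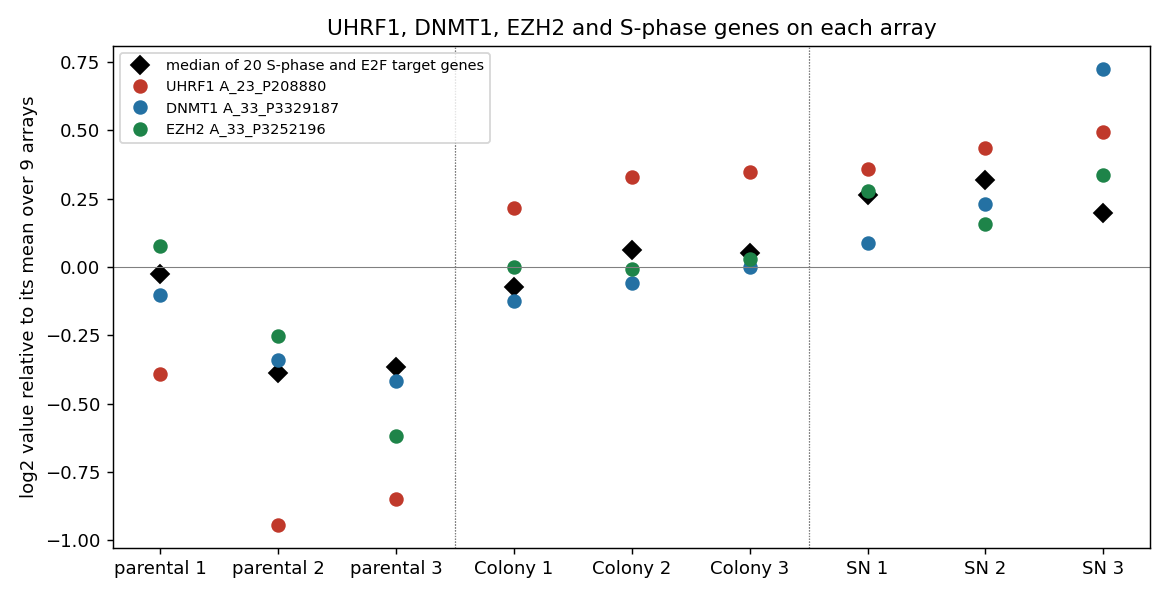
Log2 value on each of the 9 arrays (horizontal axis) relative to its mean over the arrays (vertical axis) for UHRF1, DNMT1, EZH2 and the median of 20 S-phase and E2F target genes. UHRF1 lies above the S-phase median on all OSK arrays and below it on all parental arrays, and DNMT1 is highest on OSK-A549-SN replicate 3.

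For each gene with a probe detected on all 9 arrays, the named genes with the most similar profile were sought by Pearson's r over the 9 arrays, among 13942 genes, as a description of arrays that share 3 groups. EZH2 was most like CENPL (r = 0.996), a centromere protein gene, and CEP78 (r = 0.983), a centrosomal protein gene, and 216 genes were above r = 0.9 with it. UHRF1 was most like MAPKAPK5 (r = 0.994) and PSMG1 (r = 0.994), a proteasome assembly chaperone gene, and 718 genes were above r = 0.9 with it. TET1 A_33_P3295550 was most like SALL4 (r = 0.991), a zinc finger gene of pluripotent cells, and LINC02453 (r = 0.990), and 621 genes were above r = 0.9 with it. SALL4 fell by 1.44 ± 0.18 in OSK-A549-Colony cells (adjusted p = 0.022) and differed by -1.19 ± 0.23 in OSK-A549-SN cells (adjusted p = 0.069).

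DNMT3A was most like DMKN (r = 0.987) and DAB2 (r = 0.985), with 382 genes above r = 0.9. DNMT1 was most like HNRNPM (r = 0.979) and NDUFA12 (r = 0.973), with 67 genes above r = 0.9. SUZ12 and TET2 shared QSER1, which is known to protect DNA from methylation, among their most similar genes (r = 0.995 and 0.984), followed by DEK for SUZ12 (r = 0.994) and preceded by UPF3B for TET2 (r = 0.987). Above r = 0.9 lay 677 genes for SUZ12 and 626 for TET2 A_23_P350187, and parental replicate 3 was the lowest array of both. QSER1 did not pass against the parental cells (adjusted p = 0.301 and 0.505 by limma), and a shared function was not tested. DNMT3B stood alone, with only PARTICL above r = 0.9 (r = 0.931) and ZNF526 next (r = 0.898). Among the members themselves, DNMT3A A_23_P154500 went with TET1 A_33_P3295550 (r = 0.94) and against UHRF1 A_23_P208880 (r = -0.90).

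The calls stood near their threshold and several alternatives ended them. TET1 A_33_P3295550 in OSK-A549-Colony cells differed by between -1.59 and -1.33 when 1 array was left out, with adjusted p of 0.031 to 0.097, and passed in 2 of 6 such fits, those without parental replicate 1 or 3. UHRF1 A_23_P208880 in OSK-A549-Colony cells differed by between 0.92 and 1.19, with adjusted p of 0.028 to 0.131, and remained called in the fit without parental replicate 1. In OSK-A549-SN cells it differed by between 1.05 and 1.32, with adjusted p of 0.060 to 0.184, so that the call was lost without any 1 of the 6 arrays. In all these fits the direction was kept.

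**Figure D5:**
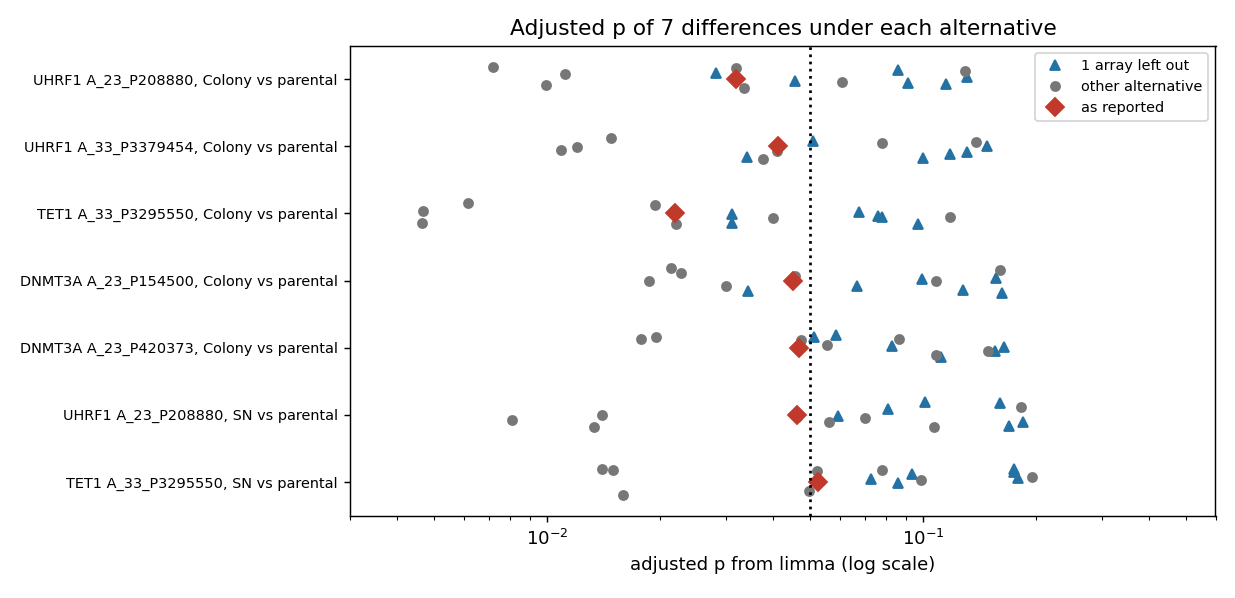
Adjusted p from limma (horizontal axis, log scale) for 7 differences named in the text (vertical axis), as reported (diamond), with 1 array left out (triangles) and under the other alternatives (circles); the dotted line marks 0.05. The reported values lie within 0.022 to 0.053, and most fits with 1 array fewer lie to the right of the line.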

How the data were processed

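Total RNA of the parental line and of both OSK populations was hybridised to single-colour Agilent SuperPrint G3 human arrays, 1 sample per array. The study's methods trace the samples to separate transduction experiments. The authors deposited each spot's intensity as processed by Agilent Feature Extraction 11.5.1.1, background-subtracted and unscaled, and a table of log2 values. In that deposited log2 table, values equalled those used here within 0.01 after a shift by 1 constant per array. No spot was saturated.

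From the deposited intensity, log2 was taken, 4259 control spots and 463 to 717 flagged spots of 62976 per array were left out, spots of a probe were averaged, and the array's 75th percentile was subtracted. A probe was detected where a share of at least 0.5 of its spots was positive, significant and well above background. Names were assigned through unversioned RefSeq accessions, and 30275 of 32065 probes with such an accession were named. The array header and the gene table use different builds, so probes are given without coordinates.

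Each pair of groups was compared with limma 3.58.1 (lmFit, eBayes) in R 4.3.3 on its own 6 arrays, over probes detected on at least 1, with Benjamini-Hochberg adjustment over all of them. The F test used 9 arrays. Errors are standard errors, and intervals are 95%. The fits were also run on simulated arrays, drawn as independent and with equal spread in both groups. This setting differs from the groups here, and no support is drawn from it. The number of arrays limits the precision.

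The members and gene lists were chosen with earlier results of these data known. All members and probes are named, with list genes called (at most 6 a list), the 2 largest differences of a list, and the 2 most similar genes of each member. Some genes with smaller differences were chosen after their values were seen: PHC2, PCGF6, TDG and PCNA. Slide 1 held 8 arrays and slide 2 only OSK-A549-SN replicate 3. Alternatives were normexp background correction (offset 50), quantile normalization, the deposited table, other detection filters, other thresholds, a block for slide, passage or replicate number, a single fit of all 9 arrays, the mean of a gene's probes, and leaving out each array.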

Additional observations from a re-analysis of the deposited data

How the results depend on the processing

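The number of member probes called in OSK-A549-Colony against parental cells was 2. It was 1 under normexp, under quantile normalization and without a detection filter, 5 with no fold threshold, and 0 to 4 when 1 array was left out (4 without parental replicate 1, 1 without parental replicate 3, and 0 without any other array). In OSK-A549-SN against parental cells it was 1. It was 0 without a detection filter and with slide as a block, 2 with probes detected on all arrays of a group, with all 9 arrays in 1 fit and at unadjusted p, and 0 when any 1 array was left out. Between the OSK groups it was 0, and 1 at unadjusted p with the fold threshold, which was the dim TET3 A_33_P3331335. The F test passed 6, against 3 without a detection filter, 3 with slide as a block and 2 to 5 when 1 array was left out. The causes of these changes were not tested.

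The reported fits do not pair arrays by replicate number, since the sources used here do not say that a number marks 1 culture. Between the OSK groups the deviations of same-numbered arrays correlated at 0.24, 0.07 and 0.14. Each OSK array went best with its own number in the other OSK group, the highest value between different numbers being 0.03. By the study's methods OSK-A549-SN cells come from the dishes of the colonies, and passages match by number, so the OSK groups may be paired. The unpaired tests between them would then leave a pairing out. Against the parental cells the numbers did not go together in this way. OSK-A549-SN replicate 2 correlated at 0.33 with parental replicate 3 and at -0.20 with parental replicate 2. With the replicate block, 0 member probes were called in either OSK group against parental cells, and the F test passed 2.

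Over all probes, normexp called 333 against 1143 for OSK-A549-Colony, 232 against 498 for OSK-A549-SN, and 32 against 0 between the OSK groups. The direction differed from the reported one in 25 of 705 values of single probes, none of them a called one. Slide could not be fitted as a block for OSK-A549-Colony against parental cells, which share slide 1. Dim probes such as those of TET3 lie near the lowest intensity well above background, 7.91 to 13.5.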
